A study of Mus musculus with 12 samples.

Results

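The transcripts of 9 mouse genes were followed across splenic dendritic cell subsets: the ID family genes Id1, Id2 and Id3, and Batf3, Nfil3, Spi1 (PU.1, listed as Sfpi1 on older arrays), Spib, Ikzf1 (Ikaros) and Gfi1. They were chosen by name, as transcription factors tied to dendritic cell lineages and their relatives, but with earlier results of these data known. Counts of called members beside the share of all probe sets are therefore descriptions. Every probe set that the platform annotation gives to 1 of these symbols alone was taken. The 9 genes, of 8251 that the array names by a single symbol, gave 12 probe sets of 12422 that are not controls, with 2 each for Nfil3, Spib and Ikzf1. The single ones were 100050_at (Id1), 93013_at (Id2), 92614_at (Id3), 93465_at (Batf3), 102641_at (Spi1) and 103259_at (Gfi1).

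Dendritic cells with high CD11c were sorted from mouse spleen into a CD8+ subset, a CD4+ subset and a subset with neither marker (double negative, DN). RNA was taken either after 2 h in culture medium at 37 °C (cultured) or at once after isolation (fresh). The 6 groups were cultured CD8+, fresh CD8+, cultured DN, fresh DN, cultured CD4+ and fresh CD4+, each with 2 oligonucleotide arrays and 12 arrays in all. All groups came from sorted cells, and the labels give neither strain, age nor sex, nor whether the 2 arrays of a group came from separate animals. The spread behind the p-values is therefore that between these arrays, and it may be technical. In bulk RNA of this kind, fewer cells of a type and less RNA per cell cannot be told apart.

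Values are Average Difference intensities, in arbitrary units that can fall below 0, after the authors' global scaling. A value under 91.4 counts as not above background. Differences are on a generalised log2 scale with their standard error (SE), and a probe set is called when limma's adjusted p is under 0.05. Cd8a read 679.4 to 1675.2 on the 4 CD8+ arrays and -17.9 to 36.1 on the other 8. Cd4 read 270.9 and 112.2 on the cultured CD4+ arrays, 617.3 and 612.8 on the fresh CD4+ arrays and -27.6 to 105.6 elsewhere. Itgax, which encodes CD11c, was above background on all 12 arrays. A single label of fresh CD8+ replicate 1 names CD4 in place of CD8, but its Cd8a and Cd4 readings were 1210.4 and 92.0, and it was used as CD8+. The 3′/5′ Gapdh ratio, a sign of RNA quality, was 2.55 on fresh CD8+ replicate 1, 1.97 on cultured CD4+ replicate 1 and 1.34 on cultured DN replicate 1, against 0.890 to 1.04 on the other 9 arrays.

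ID proteins are helix-loop-helix proteins without a DNA-binding region. They bind E proteins such as Tcf4 (E2-2) and Tcf3 (E2A) and keep them off DNA. In mice, Id2 is required for the CD8+ splenic dendritic cells, whereas E2-2 specifies plasmacytoid dendritic cells. Batf3 is a basic leucine zipper partner of JUN proteins that also binds DNA together with IRF4 or IRF8, and Batf3-deficient mice lack most CD8+ dendritic cells. Nfil3 is a basic leucine zipper repressor that acts in the circadian clock and in natural killer cell development, and its loss reduces CD8+ dendritic cells in mice. PU.1 and SPI-B are related ETS factors, the first needed for dendritic cell development and the second strongly expressed in plasmacytoid and B cells. Ikaros is a zinc finger factor of lymphoid and dendritic cell development that recruits histone deacetylases, and GFI1 is a zinc finger repressor best known from granulocytes.

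Promoters are shown for Id2, Batf3 and Nfil3, the genes with the clearest changes in culture. Each line gives the 250 bases before a start site from RefSeq, assembly GRCm38.p6, on the gene's own strand. The Nfil3 window lies within the annotated gene (chr13:52967209-52982878) and so precedes an internal start site. Capitals mark the CCAAT box (CCAAT) in Id2, the GC box (GGGCGG) in Batf3, and the GC box together with the single core of the cAMP response element (TGACG) in Nfil3, each on either strand.
Id2, chr12:25096093-25096342, minus strand: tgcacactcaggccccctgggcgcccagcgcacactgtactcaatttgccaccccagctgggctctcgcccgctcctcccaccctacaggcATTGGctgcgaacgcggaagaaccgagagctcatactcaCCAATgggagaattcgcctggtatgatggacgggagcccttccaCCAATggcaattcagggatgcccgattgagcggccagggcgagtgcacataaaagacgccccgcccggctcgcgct
Batf3, chr1:191098164-191098413, plus strand: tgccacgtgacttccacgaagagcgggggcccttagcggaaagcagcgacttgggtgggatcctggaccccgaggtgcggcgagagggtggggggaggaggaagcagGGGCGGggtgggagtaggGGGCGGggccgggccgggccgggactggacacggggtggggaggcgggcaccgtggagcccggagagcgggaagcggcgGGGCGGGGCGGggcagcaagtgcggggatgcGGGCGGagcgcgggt
Nfil3, chr13:52981040-52981289, minus strand: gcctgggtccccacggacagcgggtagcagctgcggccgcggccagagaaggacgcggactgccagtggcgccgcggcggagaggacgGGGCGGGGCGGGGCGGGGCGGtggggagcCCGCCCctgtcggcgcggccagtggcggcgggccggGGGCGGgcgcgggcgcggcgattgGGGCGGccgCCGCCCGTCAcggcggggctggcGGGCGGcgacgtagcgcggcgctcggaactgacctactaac

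The Id2 stretch holds 3 CCAAT boxes and has a GC content of 62.8%. It also holds 1 GC box on the minus strand, not capitalised, so all 3 stretches hold this motif. At least 3 CCAAT boxes occur in 2.79% of the 32851 promoters in the table, and at least 1 occurs in 33.8%. The Batf3 stretch holds 5 GC boxes and no CCAAT box, with a GC content of 76%. The Nfil3 stretch holds 9 GC boxes, of which neighbours in the first run share 1 base, and 1 cAMP response element core that shares 1 base with a GC box. It also holds 1 CCAAT box on the minus strand, not capitalised, that shares 1 base with a GC box, and its GC content is 81.6%. At least 3 GC boxes occur in 8.47% of all promoters and at least 1 in 32.7%, while a TGACG core occurs in 17.8%. The median GC content of all promoters is 52.4%. The TATA box (TATAAA) and an AP-1 site (TGANTCA), found in 12.4% and 6.75% of all promoters, matched none of the 3 stretches. These matches are descriptions of the letters in the windows, and 7 of the 9 genes had an entry in the table.

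Of the 12 probe sets, 9 were above background on at least 2 arrays and were tested, covering 7 genes. Id3, Gfi1 and the second Ikaros probe set (102294_at) did not reach that level. Id1 reached it only through the 2 cultured CD8+ arrays, so its place among the tested probe sets rests on the group where it was high. The Nfil3 probe set 102955_at reached it through its 6 cultured arrays and 1 fresh array. Averaged over the 3 subsets, 7 of the 9 were called. Id1, Id2 and both Nfil3 probe sets were higher in cultured cells, and Batf3, Ikzf1 and 1 of the 2 Spib probe sets were lower. Id1 and Nfil3 (102955_at) were tested because their cultured arrays were above background. Their calls are therefore descriptions and do not add to the count. The background was high: 39.3% of the 6159 tested probe sets were called in this comparison, 17.0% higher and 22.3% lower in cultured cells. The median log2 difference was 0.20 over the 9 member probe sets and -0.02 over all tested probe sets.

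**Figure D1:**
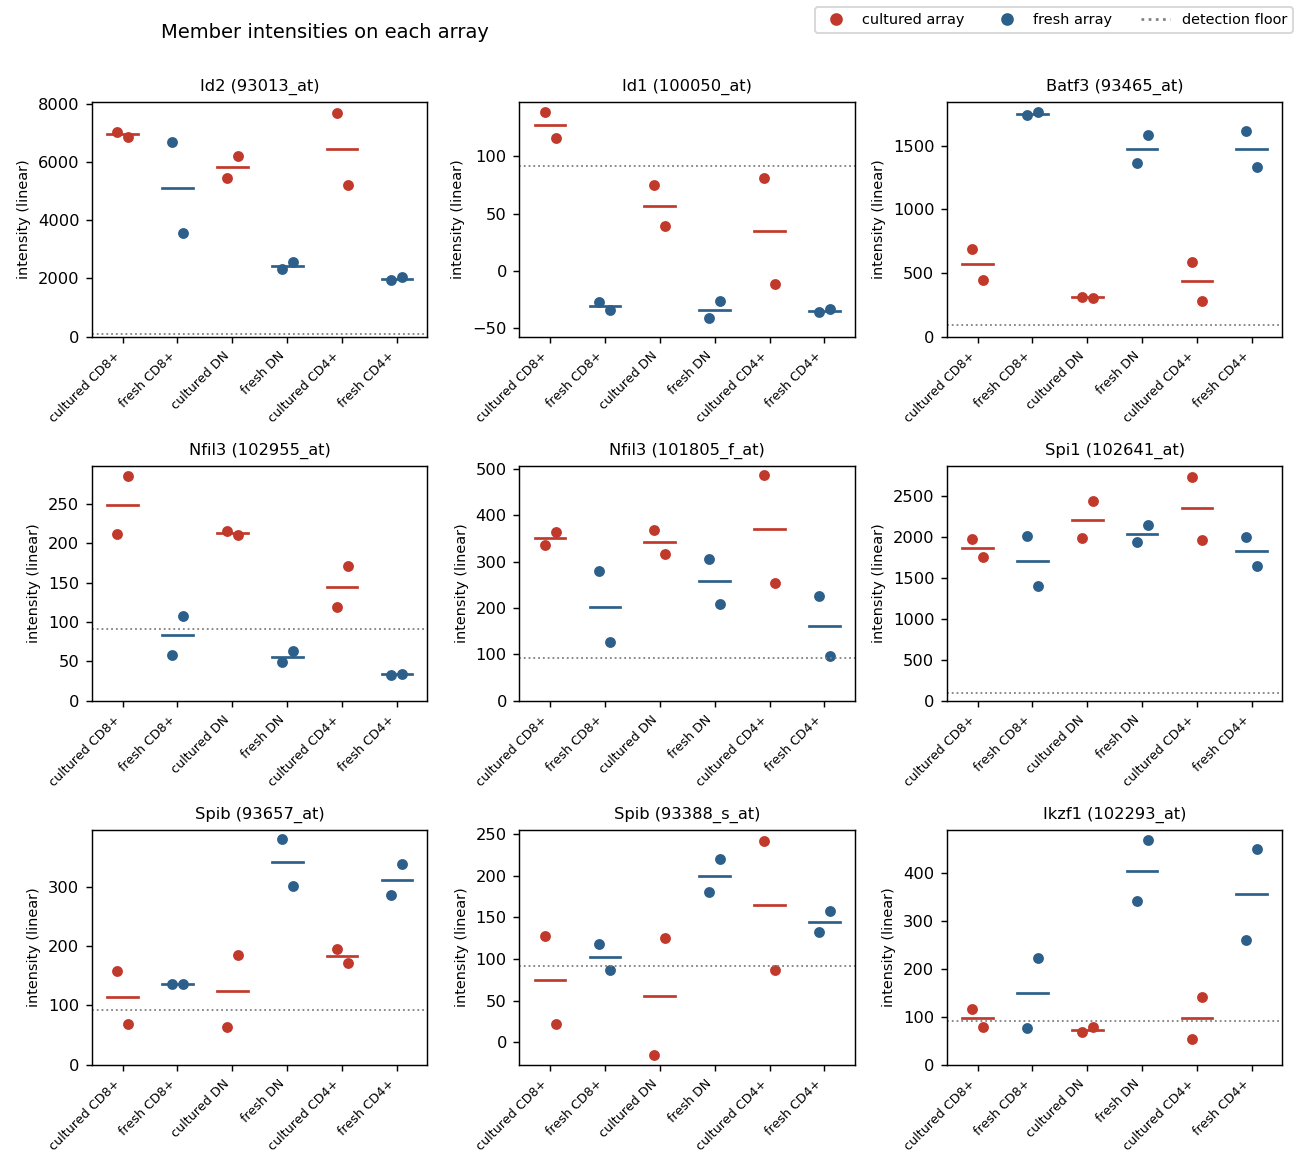
Intensity (arbitrary units, linear axis) of the member probe sets above background on at least 2 arrays, with 1 panel per probe set, 1 point per array and a bar at each group's mean. The dotted line is the background limit of 91.4, and the Batf3 panel shows all 6 cultured arrays (280.9 to 692.2) below all 6 fresh arrays (1331 to 1762).

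Id2 was bright in every group and brightest after culture. Its probe set read 7046 and 6884 in cultured CD8+ cells, against 6684 and 3565 in fresh CD8+ cells. In DN cells it read 5451 and 6200.0 after culture and 2320.1 and 2557 when fresh. In CD4+ cells it read 7701 and 5232 after culture and 1936 and 2049.6 when fresh. The cultured and fresh arrays did not overlap within any subset, but over all subsets fresh CD8+ replicate 1 lay within the cultured range. How many of all tested probe sets were apart within every subset was not counted.

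The rise was called on average over subsets (log2 difference 1.15 ± 0.18 SE, adjusted p = 0.000603), and in all 22 alternative settings. Within subsets it was called in CD4+ cells (3.24-fold; 1.67 ± 0.31, adjusted p = 0.00476) and DN cells (2.39-fold; 1.25 ± 0.31, adjusted p = 0.0258). In CD8+ cells the ratio of means was 1.36 and the difference was not called (0.51 ± 0.31, adjusted p = 0.354). The call in CD4+ cells held in all 23 alternatives. The call in DN cells was lost when any 1 of the 4 DN arrays was left out (adjusted p = 0.106 to 0.155). Of the 3 arrays of high Gapdh ratio, fresh CD8+ replicate 1 and cultured CD4+ replicate 1 read higher for Id2 than the other array of their group, and cultured DN replicate 1 read lower. Without the 3 arrays of high Gapdh ratio the difference in CD8+ cells was 0.97 with adjusted p = 0.0193.

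Among fresh cells, Id2 averaged 5125 ± 2206 in CD8+ cells, 2439 ± 167.5 in DN cells and 1993 ± 80.2 in CD4+ cells (SD, n = 2 each). Both fresh CD8+ arrays lay above all 4 other fresh arrays, with ratios of means of 2.10 over DN and 2.57 over CD4+ cells. Of all tested probe sets, 18.5% had both fresh CD8+ arrays above both fresh CD4+ arrays, and the share above all 4 was not computed. The 2 fresh CD8+ arrays differed from each other by more than the DN and CD4+ means did. The difference of fresh CD8+ from fresh CD4+ cells missed the threshold (1.29 ± 0.31, adjusted p = 0.0590), as did that from fresh DN cells (1.00 ± 0.31, adjusted p = 0.200). The first of these was called in 7 of 23 alternatives. Without fresh CD8+ replicate 2 it was 1.75 with adjusted p = 0.0121, without cultured CD4+ replicate 1 or 2 the adjusted p was 0.0376 or 0.0374, and with all 3 arrays of high Gapdh ratio left out it was 0.84 with adjusted p = 0.097. Leaving out fresh CD8+ replicate 2 also called the difference from fresh DN cells (1.46, adjusted p = 0.0323).

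After culture the subsets were close in Id2, with means of 6965 ± 114.9 in CD8+, 5826 ± 529.6 in DN and 6467 ± 1746 in CD4+ cells (SD, n = 2 each). The cultured CD8+ to CD4+ ratio was 1.08 (0.13 ± 0.31, adjusted p = 0.860), and the CD8+ to DN ratio was 1.20 (0.26 ± 0.31, adjusted p = 0.845). In the order of all 6 means, cultured CD8+, cultured CD4+, cultured DN and fresh CD8+ cells followed each other with overlapping arrays. Fresh DN and then fresh CD4+ cells followed without overlap.

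Id1, the ID family member best known as a target of BMP signals, was near background. It read 138.5 and 115.7 in cultured CD8+ cells, against -27.3 and -33.8 in fresh CD8+ cells. The cultured DN arrays read 75.1 and 39.0 and the cultured CD4+ arrays 80.8 and -11.0, against -40.9 to -26.4 on the fresh DN and CD4+ arrays. All 6 cultured arrays lay above all 6 fresh arrays, a pattern found for 7.68% of tested probe sets, but only the cultured CD8+ arrays were above background.

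In CD8+ cells Id1 was at least 1.35-fold higher after culture. Since these 2 arrays alone brought Id1 into the test, the difference is given as a description, although it passed the threshold (adjusted p = 0.0475). It did so in 11 of 22 alternatives and not when any 1 of 10 arrays was left out, the exceptions being those of cultured CD4+ cells (adjusted p = 0.0665 to 0.263). The average over subsets was 2.56 ± 0.54 (adjusted p = 0.00365), but most of the values behind it are below background, and with every value raised to the background limit it was 0.16 with adjusted p = 0.114. Id3, the third family member, stayed below background on every array, with 24.8 to 59.2 (median 42.2) in cultured cells and 19.3 to 47.6 (median 29.2) in fresh cells.

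Batf3 moved the other way. It read 692.2 and 443.4 in cultured CD8+ cells, against 1744 and 1762 in fresh CD8+ cells. The DN arrays gave 311.6 and 305.2 after culture and 1363 and 1588 when fresh. The CD4+ arrays gave 585.6 and 280.9 after culture and 1616 and 1331 when fresh. Every cultured array lay below every fresh array, which was the case for 10.1% of tested probe sets.

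On average over subsets Batf3 fell by 1.92 on the log2 scale (± 0.20 SE, adjusted p = 4.96e-05), and this held in all 22 alternatives. Fresh means exceeded cultured means 3.09-fold in CD8+ cells (-1.66 ± 0.35, adjusted p = 0.0163), 4.78-fold in DN cells (-2.25 ± 0.35, adjusted p = 0.00334) and 3.40-fold in CD4+ cells (-1.85 ± 0.35, adjusted p = 0.00574). In CD8+ cells the call was lost without fresh replicate 1 (adjusted p = 0.0666), fresh replicate 2 (0.0550) or cultured replicate 2 (0.123). In DN cells it was lost without fresh replicate 2 (adjusted p = 0.0549). In CD4+ cells it was lost without fresh replicate 1 (adjusted p = 0.0570), and when only the CD4+ arrays entered the fit (0.0737).

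Between the fresh subsets Batf3 differed little. Its mean was 1753 ± 12.8 in CD8+ cells, 1476 ± 159.0 in DN cells and 1473 ± 201.1 in CD4+ cells (SD, n = 2 each). Fresh CD8+ cells were 1.19-fold above both others, with no overlap, but the differences were not called (0.25 ± 0.35 against DN, adjusted p = 0.987; 0.26 ± 0.35 against CD4+, adjusted p = 0.948). After culture the means were 567.8 ± 175.9 in CD8+, 308.4 ± 4.53 in DN and 433.2 ± 215.5 in CD4+ cells. The cultured CD8+ arrays lay above the cultured DN arrays with a ratio of 1.84 (0.84 ± 0.35, adjusted p = 0.422). In the order of the 6 means, fresh CD8+ cells stood above fresh DN and fresh CD4+ cells, which overlapped, and the cultured CD8+, CD4+ and DN cells followed below a gap, each overlapping the next.

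Nfil3 rose with culture in each subset. Its probe set 102955_at read 212.1 and 286.1 in cultured CD8+ cells, against 58.5 and 108.0 in fresh CD8+ cells. In DN cells it read 215.2 and 210.8 after culture and 48.9 and 62.7 when fresh. In CD4+ cells it read 119.3 and 170.7 after culture and 32.4 and 34.0 when fresh. All 6 cultured arrays lay above all 6 fresh arrays, a pattern found for 7.68% of tested probe sets. Of the fresh arrays only CD8+ replicate 2 was above background. The cultured arrays thus brought this probe set into the test, and its differences between states are given as descriptions.

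The average difference was 1.66 ± 0.23 (adjusted p = 0.000277) and was called in all 22 alternatives. In CD8+ cells, where 1 of the 2 fresh arrays was above background, the ratio of means was 2.99 (1.52 ± 0.39, adjusted p = 0.0386), and with every value raised to the background limit the difference was 1.31. Cultured cells were at least 2.23-fold higher in DN cells (1.76 ± 0.39, adjusted p = 0.0191) and at least 1.51-fold higher in CD4+ cells (1.71 ± 0.39, adjusted p = 0.0141). The reading of 119.3 on cultured CD4+ replicate 1 lay near that array's noise of 107.9, so the 1.51-fold is not a safe lower bound. In CD4+ cells the call was lost without fresh replicate 1 (adjusted p = 0.0873) or 2 (0.0925), when only the CD4+ arrays entered the fit (0.110), and with every value raised to the background limit (0.64, adjusted p = 0.145). In DN cells it was lost without any 1 of the 4 DN arrays (0.0681 to 0.115). In CD8+ cells it held in 11 of 23 alternatives. There it was lost without any 1 of the fresh CD4+, fresh DN, cultured CD8+ or cultured DN arrays or fresh CD8+ replicate 1 (0.0562 to 0.211), and likewise with the 3 high-Gapdh-ratio arrays left out (1.14, adjusted p = 0.0808). Cultured CD8+ and DN cells had the highest means and overlapped, cultured CD4+ cells came next without overlap, and the fresh groups followed. Between fresh CD8+ and fresh CD4+ cells the difference was 0.95 ± 0.39 (adjusted p = 0.382), and between the cultured ones it was 0.76 ± 0.39 (adjusted p = 0.384).

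The other Nfil3 probe set, 101805_f_at, belongs to a class that can take signal from related transcripts. It read 336.6 and 363.5 in cultured and 279.7 and 126.0 in fresh CD8+ cells, 368.6 and 316.0 in cultured and 305.5 and 208.6 in fresh DN cells, and 487.0 and 253.5 in cultured and 226.6 and 97.2 in fresh CD4+ cells. The groups did not overlap within any subset, in the same direction as the first probe set, a pattern not counted over all probe sets. The average difference was 0.84 ± 0.28 (adjusted p = 0.0372), which was called in 11 of 22 alternatives. It was lost without any 1 of 8 arrays, namely replicate 2 of each fresh group, both cultured CD8+ arrays, both cultured DN arrays and cultured CD4+ replicate 1 (0.0576 to 0.111). No single subset was called (adjusted p = 0.107 to 0.607).

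Spi1, which encodes the myeloid master regulator PU.1, gave similar intensities throughout. It read 1756 to 2743 (median 1986) on the cultured arrays and 1402 to 2145 (median 1973) on the fresh arrays. Cultured and fresh arrays overlapped in every subset, and the average difference was 0.20 ± 0.16 (adjusted p = 0.320). Neighbouring groups overlapped throughout the order of the 6 means, which ran between 2353 ± 551.5 in cultured CD4+ and 1710 ± 434.7 in fresh CD8+ cells (SD, n = 2 each).

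Spib, the relative of PU.1, was dim. Its probe set 93657_at read 157.8 and 68.7 in cultured CD8+ cells, against 136.3 and 135.9 in fresh CD8+ cells. The DN values were 63.5 and 184.1 after culture and 380.4 and 301.8 when fresh. The CD4+ values were 195.8 and 171.5 after culture and 285.5 and 338.8 when fresh. Fresh DN and fresh CD4+ cells were the highest groups, and the 2 states overlapped only in CD8+ cells.

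On average Spib fell by 0.89 (± 0.28 SE, adjusted p = 0.0283), which was called in 14 of 22 alternatives. The call was lost without cultured CD8+ replicate 2, cultured DN replicate 1, fresh CD8+ replicate 2 or any fresh DN or fresh CD4+ array (adjusted p = 0.0504 to 0.0774), and likewise with the 3 high-Gapdh-ratio arrays left out (-0.68, adjusted p = 0.0533). The difference in DN cells was -1.56 ± 0.48 (adjusted p = 0.0646). Without cultured DN replicate 1 it was -0.87 with adjusted p = 0.434, and without cultured DN replicate 2 it was -2.26 with adjusted p = 0.0235. Fresh CD8+ cells lay below the fresh DN and CD4+ arrays, which were 2.51-fold and 2.29-fold brighter, without a call (-1.28 ± 0.48, adjusted p = 0.367; -1.16 ± 0.48, adjusted p = 0.385). The second probe set, 93388_s_at, which may also match related transcripts, ranged from -15.8 to 242.3 on cultured arrays (median 105.95) and from 86.4 to 220.3 on fresh arrays (median 144.95). Its average difference of -0.92 ± 0.51 was not called (adjusted p = 0.169). Without cultured DN replicate 2 it was -1.42 with adjusted p = 0.0212.

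Ikzf1 was highest in fresh CD8-negative cells. Its probe set 102293_at read 115.4 and 78.8 in cultured CD8+ cells, against 77.3 and 223.1 in fresh CD8+ cells. DN cells gave 68.1 and 78.2 after culture and 341.9 and 470.6 when fresh. CD4+ cells gave 54.1 and 141.8 after culture and 260.9 and 452.2 when fresh. Cultured and fresh arrays were apart in DN and CD4+ cells and overlapped in CD8+ cells.

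The average difference was -1.55 ± 0.32 (adjusted p = 0.00308) and was called in all 22 alternatives. Cultured DN cells were at least 4.16-fold lower (-2.34 ± 0.55, adjusted p = 0.0228), and fresh CD4+ cells were 3.64-fold above cultured CD4+ cells (-1.86 ± 0.55, adjusted p = 0.0376). The difference in CD8+ cells was -0.44 ± 0.55 (adjusted p = 0.682), and it was 0.27 without fresh CD8+ replicate 2 (adjusted p = 0.856). In DN cells the call was lost without any 1 of the 4 DN arrays (0.0681 to 0.191). In CD4+ cells it held in 10 of 23 alternatives, and was lost without any 1 array of the fresh CD4+, fresh DN, cultured CD8+ or cultured DN groups or cultured CD4+ replicate 1 (0.0508 to 0.244), and likewise with the 3 high-Gapdh-ratio arrays left out (-1.25, adjusted p = 0.0634). Fresh CD8+ cells lay below all fresh DN and CD4+ arrays, which averaged 2.70-fold and 2.37-fold higher, without a call (-1.55 ± 0.55, adjusted p = 0.301; -1.33 ± 0.55, adjusted p = 0.371). The second Ikaros probe set gave no value above background on any array. Gfi1 was also below background on every array, with -19.4 to 18.9 (median -3.8) after culture and 18.8 to 39.2 (median 22.7) when fresh.

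**Figure D2:**
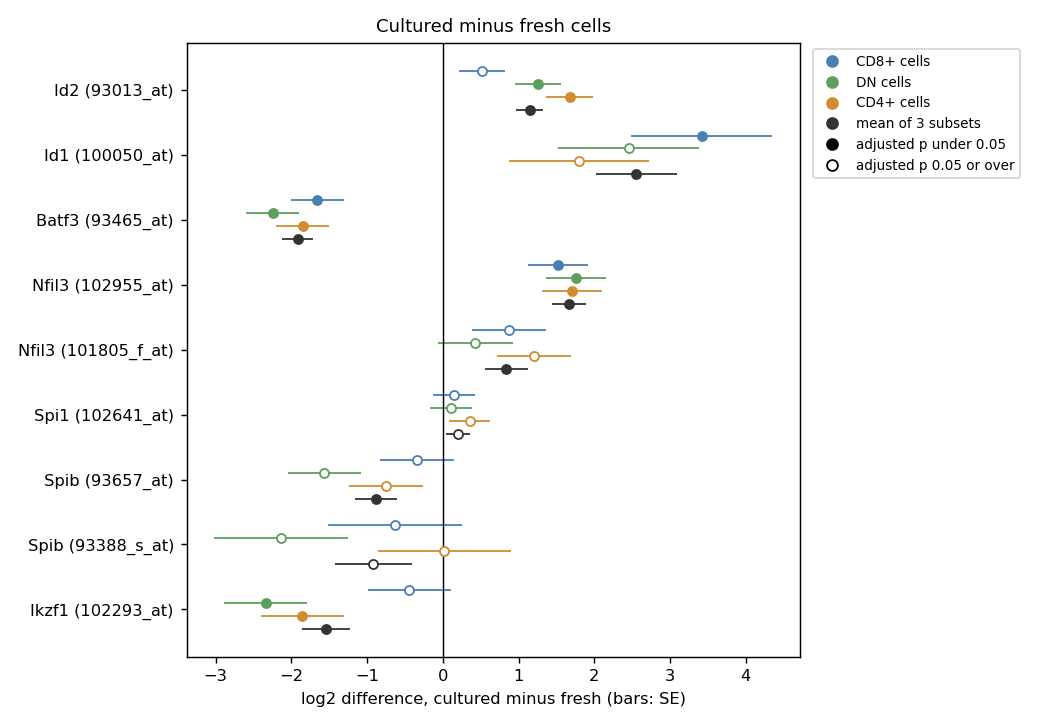
Difference between cultured and fresh cells (log2, cultured minus fresh) of the 9 tested member probe sets in CD8+, DN and CD4+ cells and averaged over the subsets, with bars of 1 SE and filled points where adjusted p is under 0.05. Batf3 lies between -2.25 and -1.66 in all 3 subsets, Id2 goes up to 1.67 in CD4+ cells and is at 0.51 in CD8+ cells, and Spi1 lies near 0.

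Subset by subset, 3 of the 9 member probe sets were called in CD8+ cells (Id1 and Nfil3 higher, Batf3 lower in cultured cells), where 8.13% of all tested probe sets were, 4.01% higher and 4.12% lower. Of these, Id1 was tested only because its cultured CD8+ arrays were above background, so its call does not add to the count. Nfil3 (102955_at) was tested through its 6 cultured arrays and 1 fresh array, so its call in each subset is likewise a description. In DN cells 4 were called (Id2 and Nfil3 higher, Batf3 and Ikzf1 lower), where 9.9% were, 4.21% higher and 5.7% lower. In CD4+ cells the same 4 probe sets were called, where 18.4% were, 7.53% higher and 10.9% lower. Whether the culture effect differed between subsets was tested directly, and 0 member probe sets were called in any of the 3 such comparisons, where 0 of 6159 probe sets were. At an unadjusted p under 0.05 these comparisons held 525 probe sets for CD8+ minus CD4+, 250 for CD8+ minus DN and 127 for DN minus CD4+. Id2 had the lowest p among the members, its culture effect in CD8+ cells being 1.16 smaller than in CD4+ cells (-1.16 ± 0.43, limma adjusted p = 0.549).

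Between subsets of the same state, 0 of the 9 member probe sets were called in any of the 6 comparisons by limma. The background was 2.29% for CD8+ over CD4+ and 1.3% for CD8+ over DN among cultured cells. It was 1.98% for CD8+ over CD4+ and 1.43% for CD8+ over DN among fresh cells, and 0% for DN over CD4+ in either state. At an unadjusted p under 0.05 the DN over CD4+ comparisons held 235 cultured and 81 fresh probe sets of the whole table. Both arrays of fresh CD8+ cells were above both of fresh CD4+ cells for Id2, Batf3 and Nfil3 (102955_at), a pattern that held for 18.5% of all tested probe sets. They were below both for both Spib probe sets and Ikzf1 (102293_at), a pattern that held for 20.6%. For arrays without overlap between states of a subset, or against DN cells, the share over all tested probe sets was not computed.

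**Figure D3:**
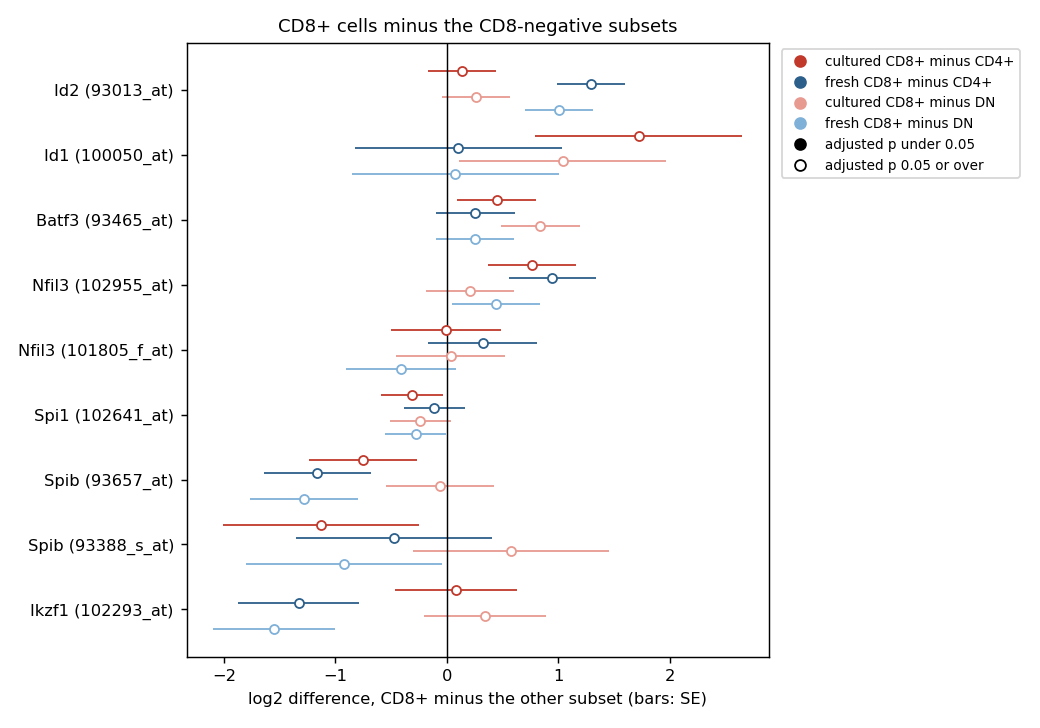
Difference between CD8+ cells and CD4+ or DN cells of the same state (log2, CD8+ minus the other subset) for the 9 tested member probe sets, with bars of 1 SE. Open points have an adjusted p of 0.05 or more, and Id2 between fresh CD8+ and fresh CD4+ cells, at 1.29, has the lowest adjusted p (0.0590).

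Markers of other cell types were read beside these values. The summed intensity of 13 B cell markers was 1878 to 4380 in cultured CD8+, 4444 to 4883 in fresh CD8+, 1787 to 3169 in cultured DN, 3050 to 4004 in fresh DN, 2096 to 3802 in cultured CD4+ and 5332 to 6073 in fresh CD4+ cells. Pou2af1, Cr2 and Ebf1 of that list were never above background. On average over subsets, 2 of the 9 tested markers rose with culture (Blk and Pax5) and 3 fell (Cd22, Cd79b and Ighm), with a median of 0.01. The B cell sum was lower on the cultured arrays than on the fresh arrays in CD8+ and CD4+ cells, and in DN cells the sums of the 2 states overlapped. Within that list, Cd22 was called lower after culture in DN cells (-6.98, adjusted p = 0.000416) and CD4+ cells (-5.88, adjusted p = 0.000774). The part of B cell RNA in the results for Batf3, Spib and Ikzf1 was not tested.

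For plasmacytoid dendritic cells, which express Spib, 8 markers were measured. They summed to 1245 to 1527 in cultured CD8+ and 684.2 to 703.7 in fresh CD8+ cells, and to 576.2 to 1327 in the other 4 groups. Irf7 was the only marker of the list called between cultured and fresh CD8+ cells (2.01 higher after culture, adjusted p = 0.0491). The part of plasmacytoid cell RNA in the results was not tested. Ccr9, Pacsin1, Klk1 and Cox6a2 were never above background. The 13 macrophage markers summed to 7502 to 12150 in cultured CD8+ cells and 2439.6 to 6043 in all other groups, with Mrc1 and Marco never above background. The list did not move as one. In CD8+ cells Cd14 (3.53), Spic (2.69) and Hmox1 (2.28) were called higher after culture and C1qc (-4.80) lower. On average over subsets, Cd14, Spic and Hmox1 rose, while C1qc (-5.07), C1qa (-1.92), Adgre1 (-1.83) and Csf1r (-1.34) fell. The part of macrophage RNA in the CD8+ results was not tested. Among 10 T cell markers, 7 were never above background, including Cd3e, Cd3g and Cd3d, and so were 4 of 7 natural killer cell markers. The natural killer sums were 317.4 to 350.3 in cultured CD8+, 232.5 to 502.6 in fresh CD8+, 941.9 to 1211 in cultured DN and 1212 to 1238 in fresh DN cells. In CD4+ cells they were 754.9 to 820.2 after culture and 532.4 to 774.4 when fresh. Klrd1 of that list was called lower in CD8+ than in DN cells when cultured (-2.48, adjusted p = 0.0235) and fresh (-2.34, adjusted p = 0.0277). The part of natural killer cell RNA in the results was not tested.

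Partner genes of each factor were counted from lists drawn up by function. These lists were chosen with earlier results of these data known, so a lean within a list is a description. The 4735 genes with a tested probe set form their background. On average over subsets, 16.1% of these genes were called higher and 24.3% lower in cultured cells, with a median difference of -0.06. Of 4 tested E protein and helix-loop-helix partners of the ID proteins, 0 rose and 1 fell, with a median of -0.35. The one that fell was Lyl1, a helix-loop-helix factor of blood progenitors, with means of 54.8 in cultured and 492.5 in fresh CD8+ cells (average -2.98 ± 0.25, adjusted p = 9.84e-06). Tcf4 averaged 141.8 in cultured and 187.5 in fresh CD8+ cells, and 220.4 in cultured and 232.8 in fresh DN cells, and was not called. Of 12 tested genes of the BMP and TGF-beta pathway, which acts upstream of ID genes, 4 rose and 5 fell (median -0.14). Tgif1, a SMAD corepressor, rose by 2.22 ± 0.19 (adjusted p = 1.46e-05), while the BMP signal carrier Smad1 fell by 1.21 (adjusted p = 0.000517) and the ligand Tgfb1 fell by 0.97 (adjusted p = 0.00173).

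Of 9 tested AP-1 and IRF partners of Batf3, 2 rose and 5 fell, with a median of -1.04. Among all 4735 genes, 16.1% rose and 24.3% fell, with a median of -0.06. Jun, the usual dimer partner, averaged 152.3 in cultured and 756.0 in fresh CD8+ cells, 128.4 in cultured and 1331 in fresh DN cells, and 232.8 in cultured and 1088 in fresh CD4+ cells (average -2.57 ± 0.27, adjusted p = 4.69e-05). Fos fell by 1.48 (adjusted p = 4.69e-05) and Fosb by 1.77 (adjusted p = 0.000126). The other 4 called are named after their values were seen: Jund fell by 1.18 (adjusted p = 0.0214), Irf8 fell by 1.04 (adjusted p = 0.0493, called in 8 of 22 alternatives), Irf4 rose by 1.75 (adjusted p = 0.00583) and Mafk rose by 1.27 (adjusted p = 0.0291). Irf4 averaged 440.4 in cultured and 100.6 in fresh CD8+ cells, and its call was lost with the 3 arrays of high Gapdh ratio left out (1.36, adjusted p = 0.0883). Irf8, which CD8+ dendritic cells need, averaged 1503 in cultured and 6644 in fresh CD8+ cells, against 453.6 in cultured and 345.1 in fresh CD4+ cells.

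Of 9 tested clock genes and PAR leucine zipper relatives listed beside Nfil3, 3 rose and 2 fell, with a median of 0.51. The clock repressor Bhlhe40 averaged 1373 in cultured and 288.2 in fresh CD8+ cells, and 2370 in cultured and 830.4 in fresh CD4+ cells (average 1.72 ± 0.18, adjusted p = 4.25e-05). Rora, a nuclear receptor of the clock, rose by 1.83 (adjusted p = 0.000265), and the clock kinase gene Csnk1e fell by 2.30 (adjusted p = 0.00153).

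Of 6 tested ETS factors beside PU.1 and SPI-B, 1 rose and 1 fell (median -0.12). The one that rose was Spic, their closest relative, with 537.6 in cultured and 79.1 in fresh CD8+ cells and 924.2 in cultured and 23.0 in fresh CD4+ cells (average 3.38 ± 0.31, adjusted p = 2.09e-05). Elf1 fell by 1.61 (adjusted p = 0.00114). Of 17 tested genes known as PU.1 targets, 3 rose and 8 fell (median -0.27). Among them the lipopolysaccharide co-receptor Cd14 rose by 2.62 (adjusted p = 0.000163), and the growth factor receptor Flt3 fell by 1.00 (adjusted p = 0.00106) and the leukocyte phosphatase Ptprc fell by 1.05 (adjusted p = 0.00114).

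Of 9 tested genes of the Ikaros family and its chromatin partners, 1 rose and 2 fell (median -0.19). The deacetylase Hdac2 fell by 0.73 (adjusted p = 0.0131), Mta2 fell by 0.88 (adjusted p = 0.0323, called in 12 of 22 alternatives) and the Ikaros relative Ikzf4 rose by 0.87 (adjusted p = 0.0377, called in 10 of 21). Of 6 tested genes of the GFI1 family and its partners, 0 rose and 2 fell (median -0.49), namely the homeobox gene Hhex (-2.46, adjusted p = 5.06e-05) and the histone methyltransferase gene Ehmt2 (-1.32, adjusted p = 0.000579). Of 21 genes listed as other transcription factors of dendritic cells, 9 rose and 5 fell (median 0.31). These counts include the signalling adaptor gene Traf6, which rose, and the receptor gene Notch2, which fell. Mycl, a MYC family factor of dendritic cells, fell by 3.42 (adjusted p = 2.99e-06), Klf4 fell by 2.01 (adjusted p = 3.10e-05) and Stat5a, which transmits GM-CSF signals, rose by 2.59 (adjusted p = 4.20e-05).

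**Figure D4:**
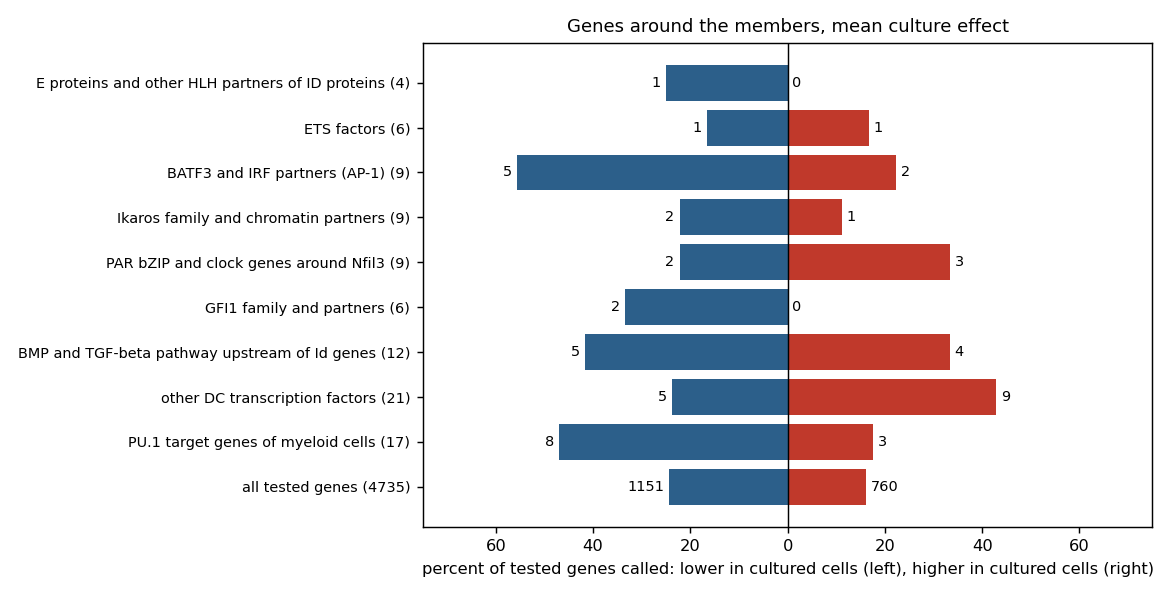
Share of tested genes called in the average culture comparison (percent, horizontal axis), with bars to the left for genes lower in cultured cells and to the right for genes higher, for the 9 lists of partner genes and for all 4735 tested genes. Numbers at the bars are counts and numbers in brackets are genes tested; the AP-1 and IRF list has 5 of 9 lower and 2 higher.

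Between fresh CD8+ and fresh CD4+ cells, 1.14% of the 4735 genes were called higher and 1.14% lower, and 3 genes from the partner lists were among them. Irf8 was higher in fresh CD8+ cells (4.28 ± 0.66, adjusted p = 0.00585), a call lost without fresh CD4+ replicate 2 (adjusted p was then 0.0809) or without fresh CD8+ replicate 1 (0.0723). Bhlhe40 was lower (-1.54 ± 0.31, adjusted p = 0.0274), a call lost without either array of the fresh CD4+ or fresh DN groups or fresh CD8+ replicate 1 (0.0546 to 0.277). Also lower was Relb, an NF-kappaB gene needed by CD8-negative dendritic cells (-2.11 ± 0.23, adjusted p = 0.000961), which was called in all 23 alternatives. Relb averaged 393.3 in fresh CD8+ cells, against 1568 in fresh DN and 1706 in fresh CD4+ cells.

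Between cultured CD8+ and cultured CD4+ cells, 1.58% of genes were called higher and 1.03% lower. The TGF-beta family receptor genes Eng (3.15, adjusted p = 0.0172) and Acvrl1 (2.36, adjusted p = 0.0225), Myb (2.06, adjusted p = 0.0371) and Flt3 (1.39, adjusted p = 0.0333) were higher in cultured CD8+ cells, and Klf4 (-2.05, adjusted p = 0.0133) and Rora (-2.01, adjusted p = 0.0370) were lower. Between cultured CD8+ and cultured DN cells, where 0.718% of genes were called higher and 0.76% lower, Acvrl1 (2.52, adjusted p = 0.0234) and Mycl (1.91, adjusted p = 0.0469) were higher and Klf4 (-2.04, adjusted p = 0.0178) was lower. Each of these 9 calls between cultured subsets was lost without cultured CD8+ replicate 1 (adjusted p = 0.0563 to 0.353), and all but that of Klf4 against CD4+ cells without cultured CD8+ replicate 2 (0.0530 to 0.216). With every value raised to the background limit, Eng against CD4+ cells was 0.23 (adjusted p = 0.813) and Mycl against DN cells was 0.54 (adjusted p = 0.666).

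Genes whose pattern over the 12 arrays was most like that of each factor were ranked by Pearson correlation on the log2 scale among 4734 genes. These correlations are descriptions, since arrays of a group and of a state share their conditions. For Id2 the closest were Ahr (r = 0.96), St8sia4 (0.96) and Rab10 (0.94). Ahr, the aryl hydrocarbon receptor, averaged 400.9 in cultured and 235.1 in fresh CD8+ cells, 293.4 in cultured and 130.1 in fresh DN cells, and 414.1 in cultured and 98.1 in fresh CD4+ cells. For Batf3 they were Unc93b1 (0.98), Isoc1 (0.97) and Unc119 (0.97). Unc93b1, which carries nucleic acid-sensing Toll-like receptors to endosomes, averaged 260.2 in cultured and 682.5 in fresh CD8+ cells and 203.6 in cultured and 789.1 in fresh CD4+ cells. For Id1 they were Il6, N4bp1 and Cxcl2 (each 0.96), and the cytokine gene Il6 averaged 371.7 in cultured and 9.65 in fresh CD8+ cells. Id1 itself was above background only on the 2 cultured CD8+ arrays that brought it into the test. Its correlations therefore rest on those arrays and on values below background.

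For Nfil3, taken by its brighter probe set 101805_f_at, the closest were Sgip1 (0.95), Des (0.95) and Kcnk1 (0.94). For Spi1 they were Neo1 (0.92), Cyth2 (0.90) and Fshr (0.90). Group means ran from 28.6 to 98.65 for Des, 38.6 to 132.35 for Kcnk1 and 31.9 to 110.65 for Neo1. Much of the pattern of these genes thus lies near or below the background limit of 91.4. For Spib (93657_at) they were the lysosome regulator Tfeb (0.96), Jak3 (0.90) and Slc29a1 (0.88), of which Tfeb averaged 27.85 in fresh CD8+ cells, against 186.2 in fresh DN cells. For Ikzf1 they were Pkp3, Ddit4 and Rrm2 (each 0.95), of which Pkp3 had group means of -89 to 125.95, also near or below background. Ddit4, a stress-induced inhibitor of mTOR signalling, averaged 109.8 in fresh CD8+ cells, against 919.5 in fresh DN and 769.0 in fresh CD4+ cells.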

How the data were processed

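RNA from sorted mouse splenic dendritic cells was measured on 12 oligonucleotide arrays in 6 groups of 2, grouped by the labels' titles. The deposited values are Average Difference intensities on a linear scale, globally scaled by the authors per the labels; the software is not given in the sources used here, and global scaling assumes equal total signal per array. The members and lists were chosen with earlier results of these data known.

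Intensities x were put on the scale log2((x + sqrt(x² + c²)) / 2), which is defined below 0. The root mean square of the negative values was taken per array, its median of 45.7 served as c, and the background limit was 91.4 (2 times c). Differences on this scale understate changes of dim probe sets, and values below 0 can inflate them. Of 12488 probe sets, 66 controls were left out. The platform annotation gave the other 12422 a single symbol for 10833, several for 396 and none for 1193. A RefSeq gene table held the Entrez identifiers of 10817, and 0 symbols changed. Probe sets above the limit on at least 2 arrays were tested, which left 6159.

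Group means were fitted over all 12 arrays with limma 3.58.1 in R 4.3.3 (lmFit, then eBayes with trend and robust), with Benjamini-Hochberg adjustment over all tested probe sets. With 6 residual degrees of freedom, 2 arrays per group limit the precision. The script was tested on simulated data. Where both arrays of a group were below the limit, "at least N-fold" sets the brighter group's log-scale mean against the limit, or the probe set's own value where higher. Since the same limit served all arrays, this fold is not a safe lower bound on the noisier arrays. A gene was represented by its tested probe set of highest mean. From each partner list up to 3 called genes of lowest p were named per comparison, and the 3 genes of highest correlation with each factor were named. Members were all named. Python 3.11.15, matplotlib 3.10.9, numpy 2.4.6, pandas 2.3.3 and scipy 1.17.1 made the summaries and figures. Alternatives changed the offset, filter, normalization, variance model, arrays entered and array weights, or left out 1 array at a time.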

Additional observations from a re-analysis of the deposited data

How the results depend on the processing

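With 2 arrays per group, leaving out an array leaves a lone array that is assumed to vary like the other groups. Of 18 called member results, 5 were called in every alternative, and 0 changed sign. Leaving out 1 array gave between 1 and 6 called member probe sets for culture in CD4+ cells, 0 and 3 in CD8+ cells, 0 and 5 in DN cells and 5 and 7 for the average, and between 0 and 1 for fresh CD8+ against fresh CD4+ and against fresh DN cells. The fit of the CD4+ arrays alone called 1 probe set for culture, in place of 4. The count between fresh CD8+ and fresh CD4+ cells was 1 in place of 0 (Id2) with a hard floor (adjusted p = 0.0474), quantile normalization (0.0102), array weights (0.0257) and the replicate block. An eBayes fit without trend lost Id2 in DN cells (0.0575). 4 results that were not called changed sign: Spi1 on average with quantile normalization (-0.0056, adjusted p = 0.976), Ikzf1 in CD8+ cells without fresh CD8+ replicate 2 (0.27, against -1.16 without replicate 1), Spib (93657_at) in CD8+ cells without cultured CD8+ replicate 2 (0.20, adjusted p = 0.876, against -0.89 without replicate 1), and Id2 between cultured CD8+ and CD4+ cells without cultured CD4+ replicate 2 (-0.15, adjusted p = 0.805, against 0.41 without replicate 1). The causes were not tested.

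Experiment numbers recur in every group, but the labels do not say that a number marks a shared day or animal. Deviations from the group means of same-numbered arrays correlated at 0.179 to 0.396 among fresh groups, 0.285 to 0.338 among cultured groups and 0.106 to 0.444 between states. With the number as a replicate block, called member probe sets were 5 in CD4+, 3 in CD8+ and 5 in DN cells and 7 on average, against 4, 3, 4 and 7 without it. The block called Id2 between fresh CD8+ and fresh CD4+ cells (1.29, adjusted p = 0.0441), Nfil3 (101805_f_at) in CD4+ cells (adjusted p = 0.0292) and Spib (93657_at) in DN cells (adjusted p = 0.0492), and it lost 0 member calls.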
